A study of Mus musculus with 6 samples.

Results

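The Eph receptors, ephrins, semaphorins, plexins and neuropilins are the cell surface and secreted proteins through which neighbouring cells attract, repel or sort from one another. Their genes were chosen by symbol alone: every listed gene of the EphA, EphB, ephrin-A and ephrin-B classes, of semaphorin classes 3 to 7, of the plexin classes A to D, and both neuropilins. This gave 53 of the 23353 genes in the table, namely 14 Eph receptors, 8 ephrins, 20 semaphorins, 9 plexins and 2 neuropilins. Of these, 46 reached 10 normalized counts (reads divided by 1 factor per library) in 3 or more of the 6 libraries and were tested. In 45 of them every library reached that level. None of the 46 passed through a single genotype.

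Messenger RNA was sequenced from day 4 (D4) embryoid bodies (EBs), floating aggregates in which mouse embryonic stem cells (mESCs) differentiate. One group was the parental line, W9.5 (wildtype, 3 libraries). The other was clone 14 of the same line, edited in Evx1 with CRISPR-Cas9 (EVX1-Δfs, 3 libraries). Both were differentiated for 4 days in serum medium without LIF, the cytokine that holds mESCs undifferentiated. The edited line is 1 clone that carries small frameshift deletions on both alleles of Evx1 (compound heterozygous), so an effect of the edit and a property of that clone cannot be told apart. The guide that directed the cut is shown because it defines the EVX1-Δfs group. It reads, 5′ to 3′ and followed by its PAM in capitals,

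Evx1 guide: ccagatgcgccgataccgcaCGG

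The 20-base target lies at chr6:52265847-52265866 on the plus strand (NCBIM37, the assembly of mm9), in coding sequence of exon 2 of Evx1, a homeodomain transcription factor of the posterior primitive streak.

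Reads assigned to genes numbered 7597879 to 9914471 per library. Evx1 itself ranged from 2176 to 2400.0 normalized counts in wildtype and from 2012 to 2516 in EVX1-Δfs, but a frameshift can leave the amount of transcript as it was, so the genotype was not checked by these counts. All 6 libraries held T, a factor of the primitive streak (2759 to 5299 normalized counts), and Pou5f1, the pluripotency factor (5725 to 9960). Visceral endoderm markers summed to only 7.96 to 26.3 normalized counts per library, with Afp at 0 in all wildtype libraries. EVX1-Δfs EBs were lower in 7 of 7 posterior and paraxial mesoderm markers (summed normalized counts of 12731 to 14520 in wildtype and 7458 to 9057 in EVX1-Δfs), of which 5 passed with the replicate number as a block. They were also lower in 3 of 11 haematoendothelial markers, Kdr, Etv2 and Lmo2 (summed 3194 to 4258 and 1933 to 2153). Lmo2 was not called after trends on GC content and exon length were removed. Of the 5 definitive and anterior endoderm markers, 3 were higher (415 to 602 and 632 to 969), and 1 of these with the block. Of the 6 epiblast markers 1 was higher (12384 to 19363 and 16059 to 20329), and none with the block. Of 5 neurectoderm markers (all 5 summed, 2177 to 2914 and 2496 to 2691) 3 were tested, and none passed the test. Nor did any of 3 neural crest markers (171 to 229 and 155 to 214). All listed mesoderm markers and some haematoendothelial and endoderm markers thus differed between the genotypes, and their part in the results below was not tested. Fewer cells of a type and less RNA per cell cannot be told apart in RNA from whole EBs.

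Eph receptors are receptor tyrosine kinases whose ligands, the ephrins, are tethered to the membrane of the adjacent cell. Binding sends signals into both cells and commonly leads to retraction, which keeps cell populations apart and forms boundaries. Ephrin-A ligands are held by a lipid anchor and mostly bind EphA receptors, whereas ephrin-B ligands span the membrane and mostly bind EphB receptors. Semaphorins of class 3 are secreted and those of classes 4 to 7 are attached to the membrane. They signal through plexins, whose cytoplasmic part acts on small GTPases, and most class 3 semaphorins need a neuropilin as co-receptor. The families were first known for steering growing axons, and they also guide the growth of blood vessels and the movement of mesoderm and neural crest cells.

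The level of each member was compared first, as normalized counts per kb of exon, because counts alone rise with transcript length. Epha1 had the highest level of the 53, at 676 ± 115 (SD, n = 3) in wildtype and 667 ± 53.8 in EVX1-Δfs. Next in wildtype came Plxna1 at 338 ± 35.1, Ephb4 at 328 ± 42.8 and Efna4 at 321 ± 7.67, 3 levels that lay within their own spread of one another. These 4 genes belong to 4 different classes, a plexin, an ephrin and 2 receptors of the EphA and EphB classes. Plxnb2 (257 ± 21.1), Epha2 (232 ± 17.9) and Efna3 (231 ± 54.6) followed, and the last 2 of these did not differ beyond their spread. The plot of levels per kb shows a range from these to Ephb1, at 3.06 ± 0.314, the lowest of the tested members. A small number of genes made up most of each class. Epha1 gave 71.0% ± 2.2 of the summed EphA level per kb in wildtype, Plxna1 72.8% ± 2.2 of the Plexin-A level, Ephb4 65.6% ± 2.1 of the EphB level and Sema5b 85.1% ± 2.1 of the Sema5 level.

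**Figure D1:**
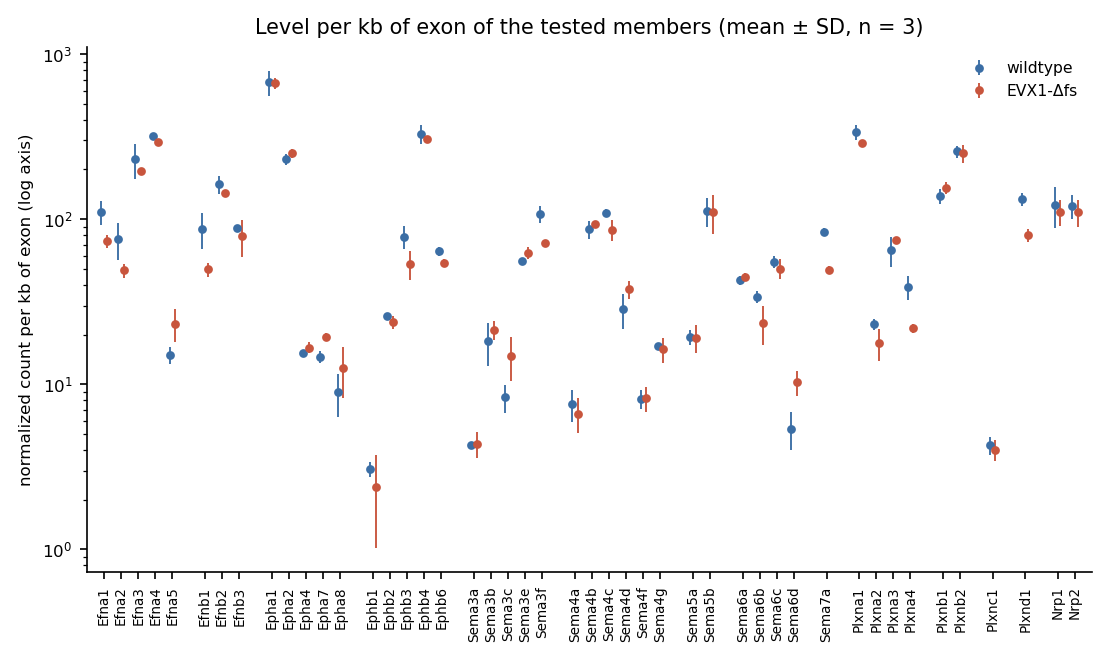
Level of the 46 tested members, as normalized counts per kb of exon on a log axis, in wildtype and EVX1-Δfs EBs (points, mean; bars, SD; n = 3), grouped by class. Epha1 stands highest at 676 in wildtype and Ephb1 lowest at 3.06, and the 2 genotypes lie close together for most members.

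The remaining 7 members were not tested: Epha3, Epha5, Epha6, Epha10, Plxnb3, Sema3d and Sema3g. Their highest value in any library was 14.0 normalized counts, for Epha10 in EVX1-Δfs replicate 1. Epha5, Epha6, Plxnb3 and Sema3g were at 0 in at least 1 library, where a count of 0 allows up to 3 reads, or 2.65 to 3.44 normalized counts depending on the library. These limits and all counts cover counting error only.

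The question of the comparison was which members differed between EVX1-Δfs and wildtype EBs. In EVX1-Δfs EBs 7 members fell, namely the plexins Plxnd1 and Plxna4, the semaphorins Sema7a and Sema3f, the ephrins Efnb1 and Efna1, and the receptor Ephb3. The semaphorins Sema6d and Sema3c rose. These 9 of 46 were called by limma on log2(normalized count + 1) at a Benjamini-Hochberg adjusted p under 0.05 over all 13136 genes tested. Over all those genes 5.02% were called, 2.95% lower and 2.08% higher in EVX1-Δfs. With the replicate number as a block, 5 members were called (Plxnd1, Plxna4, Sema7a, Efnb1 and Sema3f), where 1.69% of all genes were. That number was taken to mark the day of differentiation, which the sample labels do not state. Upper-quartile scaling turned the balance of calls over all genes, from 273 higher and 387 lower to 370 higher and 325 lower, and 8 members were then called, each in the same direction. The median log2 fold change of the 46 was -0.11, beside 0.0002 over all genes tested, with 30 members below 0 and 16 above. The 3 values of one genotype lay wholly outside those of the other in 17 members, 12 lower and 5 higher in EVX1-Δfs, and in 26.9% of all genes tested. For 20 members the 95% interval of the log2 fold change lay within 0.5 of 0 in both directions. For the other uncalled members this depth and these 3 libraries per genotype leave larger differences possible.

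**Figure D2:**
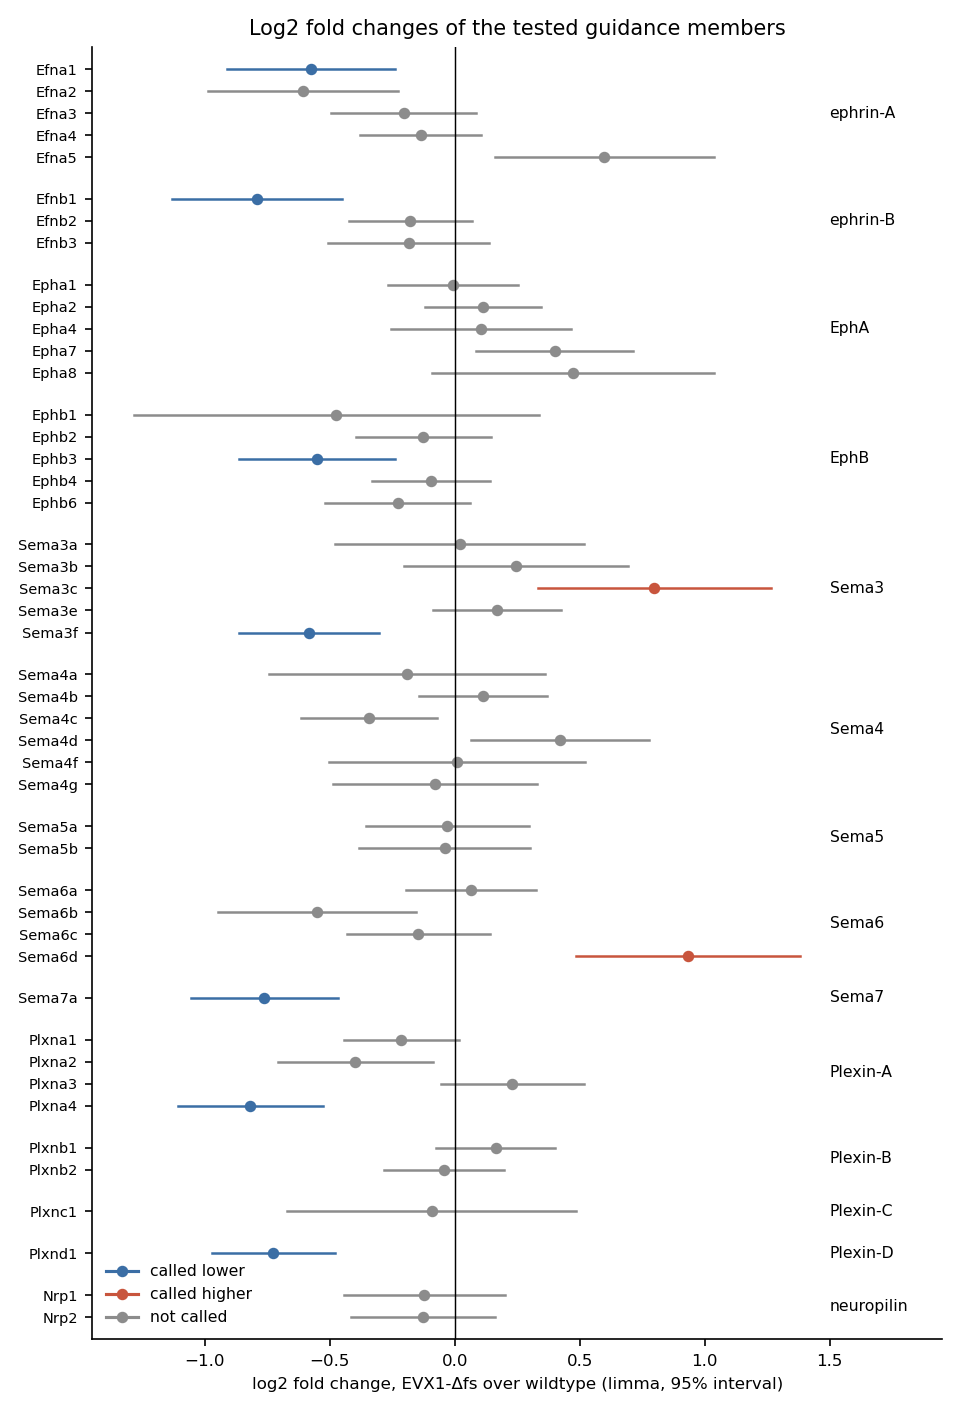
Log2 fold change of each of the 46 tested members, EVX1-Δfs over wildtype, with its 95% interval from limma on log2(normalized count + 1), grouped by class. Blue marks the 7 called lower, red the 2 called higher and grey the 37 not called, which range from -0.61 to 0.60.

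The promoters of members that fell or rose are shown where RefSeq gives them, to let their base composition and the motifs searched be seen beside the values. Of the 53 members 47 had 61 promoter windows of 300 bases (250 before the start site and 50 from it on, GRCm38.p6), and these were rich in CpG, with a median of 20 CpG pairs and 64.0% GC, beside 7 and 52.7% over all 32851 windows. The motifs searched, on both strands and none contained in another, were the homeodomain core TAATTA, the E-box CACGTG, the SMAD element GTCTAGAC, the TCF/LEF core CTTTGAT and the GATA core AGATAA. Among the 9 windows of 7 called members, 1 held TAATTA, a core bound by many homeodomain proteins, and 1 held CACGTG. The shares of all windows with these letters were 5.29% and 7.15%. No window of a called member held the other motifs, which stood in 0.213% (SMAD), 3.73% (TCF/LEF) and 11.2% (GATA) of all windows. Both windows with a match are printed with the match in capitals, followed by those of Plxnd1 and Sema7a, 2 of the 3 members called in every alternative, which held none of the 5.
Efna1: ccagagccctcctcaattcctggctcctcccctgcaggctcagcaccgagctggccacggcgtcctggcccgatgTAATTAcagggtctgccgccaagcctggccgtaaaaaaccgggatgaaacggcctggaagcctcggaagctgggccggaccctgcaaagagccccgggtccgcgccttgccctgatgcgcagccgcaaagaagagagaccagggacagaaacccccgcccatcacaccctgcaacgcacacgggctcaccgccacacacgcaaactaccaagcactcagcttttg
Sema6d: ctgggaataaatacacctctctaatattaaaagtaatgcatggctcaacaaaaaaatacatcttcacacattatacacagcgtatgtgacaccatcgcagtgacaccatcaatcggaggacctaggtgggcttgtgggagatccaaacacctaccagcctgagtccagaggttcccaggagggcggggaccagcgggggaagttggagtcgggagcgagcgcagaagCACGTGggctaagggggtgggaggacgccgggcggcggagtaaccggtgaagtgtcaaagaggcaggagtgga
Plxnd1: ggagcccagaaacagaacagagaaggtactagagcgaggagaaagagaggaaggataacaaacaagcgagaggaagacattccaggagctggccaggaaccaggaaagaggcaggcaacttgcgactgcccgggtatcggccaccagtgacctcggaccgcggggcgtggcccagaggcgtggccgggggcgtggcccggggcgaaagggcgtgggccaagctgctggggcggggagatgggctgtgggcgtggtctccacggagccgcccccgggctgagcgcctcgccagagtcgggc
Sema7a: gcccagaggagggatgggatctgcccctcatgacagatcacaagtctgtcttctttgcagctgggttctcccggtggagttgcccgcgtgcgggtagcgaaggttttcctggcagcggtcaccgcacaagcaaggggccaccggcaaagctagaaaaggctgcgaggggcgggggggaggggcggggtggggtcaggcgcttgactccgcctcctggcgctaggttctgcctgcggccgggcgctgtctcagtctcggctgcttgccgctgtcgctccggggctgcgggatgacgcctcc

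The Efna1 window is chr3:89280902-89281201 on the minus strand, the further upstream of its 2 windows, and its match begins at base 76. The Sema6d window is chr2:124089719-124090018 on the plus strand, also 1 of 2, with its match at base 228. The Plxnd1 window is chr6:115994956-115995255 on the minus strand and that of Sema7a chr9:57939862-57940161 on the plus strand, each the gene's single window. A match says only that these letters are present.

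Plexin-D1 is the plexin of endothelial cells, a receptor for Sema3e that restrains vessel sprouting. Plxnd1, on chromosome 6 from 115904829 to 115945023 (NCBIM37, minus strand, ENSMUSG00000030123.8), measured 958, 1039.8 and 868 normalized counts in the wildtype libraries and 551, 639 and 541 in the EVX1-Δfs libraries (values are given throughout in the order of replicates 1, 2 and 3). All 3 EVX1-Δfs libraries lay below all 3 wildtype libraries, with 228 normalized counts between the groups. The mean fell from 955 ± 85.9 (SD, n = 3) to 577 ± 54.1, a log2 fold change of -0.73 ± 0.12 (SE; limma adjusted p = 0.00118, and 0.00889 with the block). Its level was 133 per kb in wildtype and 80.3 per kb in EVX1-Δfs. The haematoendothelial markers that fell, Kdr among them, were lower in the same 3 libraries, and their part in the value of Plxnd1 was not tested.

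Among the Plexin-A receptors, which pair with neuropilins or bind class 6 semaphorins directly, Plxna4 fell. Plxna4 (chromosome 6, 32094565 to 32538192, minus strand, ENSMUSG00000029765.9) measured 524, 549.5 and 395 normalized counts in wildtype and 274, 291 and 259 in EVX1-Δfs. The groups did not overlap, and the EVX1-Δfs values were close together. The log2 fold change was -0.82 ± 0.14 (adjusted p = 0.00161, and 0.0101 with the block), from a mean of 489.6 ± 82.9 to 275 ± 15.9. The exons of Plxna4 share 110 bases on the opposite strand with Gm13851, a transcript not in the table.

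The other Plexin-A genes were not called, and they did not share a direction. Plxna1, the plexin with the highest level per kb, measured 3407, 2935 and 2804 in wildtype and 2519.9, 2655 and 2690.0 in EVX1-Δfs, without overlap (log2 fold change -0.21 ± 0.11, adjusted p = 0.253). Its exons share 970 bases on the opposite strand with Gm16896, a non-coding gene not in the table. Plxna2 measured 323, 346 and 377 in wildtype and 244, 335 and 225 in EVX1-Δfs (-0.40 ± 0.15, adjusted p = 0.115), and EVX1-Δfs replicate 2 was the library that overlapped wildtype. Without that library it was called (0.0366). Plxna3 measured 582, 559 and 389 in wildtype and 587, 591 and 589.8 in EVX1-Δfs (0.23 ± 0.14, adjusted p = 0.325), so that 3 nearly equal values lay above a wide wildtype group. Within the class, Plxna4 made up 8.4% ± 1.0 of the level per kb in wildtype and 5.4% ± 0.3 in EVX1-Δfs, and Plxna3 13.8% ± 1.8 and 18.5% ± 0.5.

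Plexin-B receptors are known as receptors of class 4 semaphorins. Plxnb1 and Plxnb2 were abundant and were not called, with log2 fold changes of 0.16 (95% interval -0.08 to 0.40) and -0.04 (-0.28 to 0.20). Plxnc1, the plexin that Sema7a can bind, was low, at 24.8 to 32.7 normalized counts over the 6 libraries, with a log2 fold change of -0.09 (-0.67 to 0.49). The neuropilins, co-receptors of class 3 semaphorins and of VEGF, varied widely within wildtype. Nrp1 measured 583, 949 and 631 in wildtype and 556, 626 and 779 in EVX1-Δfs, and Nrp2 979, 1352 and 1090.1 and 830.0, 1192 and 1117. Wildtype replicate 2 was the highest library for both. Their log2 fold changes were -0.12 (-0.44 to 0.20) and -0.13 (-0.42 to 0.16), with adjusted p of 0.686 and 0.618.

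Semaphorins moved in both directions. Sema7a, a semaphorin held by a lipid anchor that can act through integrins, lies on chromosome 9 from 57787920 to 57810671 (plus strand, ENSMUSG00000038264.7). It measured 289.9, 258 and 282 normalized counts in wildtype and 173, 155 and 161 in EVX1-Δfs. The highest EVX1-Δfs value was 85.7 below the lowest wildtype value. The mean fell from 277 ± 16.3 to 163 ± 9.23, a log2 fold change of -0.76 ± 0.14 (adjusted p = 0.00358, and 0.0194 with the block).

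Sema3f, a secreted repellent that acts through neuropilin-2, had the highest level per kb of the class 3 semaphorins. It lies on chromosome 9 from 107583833 to 107612806 (minus strand, ENSMUSG00000034684.6) and measured 358, 427 and 341 in wildtype and 248, 263 and 237 in EVX1-Δfs. The groups did not overlap. The log2 fold change was -0.58 ± 0.14 (adjusted p = 0.0163, and 0.0406 with the block). The call was lost when wildtype replicate 2 (adjusted p = 0.0690) or one of EVX1-Δfs replicates 1 (0.0568) and 3 (0.0736) was left out, and with GC and length trends removed (0.0923).

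Sema3c, a class 3 semaphorin known for its part in the outflow tract of the heart, rose from low counts. It lies on chromosome 5 from 17080099 to 17236086 (plus strand, ENSMUSG00000028780.7) and measured 72.7, 52.2 and 53.8 in wildtype and 105, 75.6 and 139 in EVX1-Δfs. The lowest EVX1-Δfs value was only 2.85 above the highest wildtype value. The log2 fold change was 0.80 ± 0.23 (adjusted p = 0.0421, and 0.0734 with the block, where it was not called). The call was also lost without wildtype replicate 2 (0.0855) or 3 (0.0972) and without EVX1-Δfs replicate 1 (0.121) or 3 (0.234). With GC and length trends removed the log2 fold change was 0.53 (adjusted p = 0.213).

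Sema3e, the ligand of plexin-D1, measured 443, 424 and 399.6 in wildtype and 495, 429 and 505 in EVX1-Δfs (log2 fold change 0.17 ± 0.12, adjusted p = 0.424), and the groups overlapped. Sema3a and Sema3b were at 38.1 to 53.0 and 56.1 to 104 normalized counts and were not called. The makeup of class 3 shifted in these values: Sema3f gave 54.7% ± 4.0 of the level per kb in wildtype and 40.5% ± 3.7 in EVX1-Δfs, Sema3e 28.4% ± 1.5 and 35.4% ± 1.8, and Sema3c 4.3% ± 0.8 and 8.4% ± 2.2. These shares are a description and were not tested. Shares within a class depend on one another, so a fall of Sema3f alone raises those of the other genes. No class 3 gene was called with GC and length trends removed. Genes of the class are clustered in the genome without a shared direction. Sema3a, Sema3c, Sema3d and Sema3e lie on chromosome 5, where only Sema3c was called, and Sema3b and Sema3f are neighbours on chromosome 9, where Sema3b had a log2 fold change of 0.25 ± 0.22 (adjusted p = 0.522).

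Class 6 semaphorins span the membrane and bind plexin-A receptors. Sema6d, which has a role in the forming heart, lies on chromosome 2 from 123915705 to 124493506 (plus strand, ENSMUSG00000027200.11) and measured 44.0, 72.6 and 53.8 normalized counts in wildtype and 123, 114 and 87.7 in EVX1-Δfs. All EVX1-Δfs values were above all wildtype values. Its log2 fold change of 0.93 ± 0.22 was the largest of the 46 in size (adjusted p = 0.0163, and 0.0515 with the block, where it was not called). Leaving out wildtype replicate 1 (0.0627), or either of EVX1-Δfs replicates 1 (0.0875) and 2 (0.0564), also ended the call.

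The other class 6 genes were not called. Sema6b measured 127, 130.1 and 147 in wildtype and 82.2, 122 and 76.2 in EVX1-Δfs, without overlap (-0.55 ± 0.19, adjusted p = 0.0884), and was called when EVX1-Δfs replicate 2, the highest of its group, was left out (0.0350). Sema6a measured 399.9, 356 and 365 in wildtype and 411, 369 and 393 in EVX1-Δfs (0.06 ± 0.12, adjusted p = 0.797). Sema6c measured 357, 328 and 301 and 269.8, 345 and 279 (-0.15 ± 0.14, adjusted p = 0.557). Classes 4 and 5 had 8 tested genes and no call, with log2 fold changes from -0.34 (Sema4c, 95% interval -0.62 to -0.07, adjusted p = 0.120) to 0.42 (Sema4d, 0.06 to 0.78, adjusted p = 0.145). Sema4d, a ligand of plexin-B1, was above wildtype replicates 2 and 3 in all EVX1-Δfs libraries but overlapped replicate 1.

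**Figure D3:**
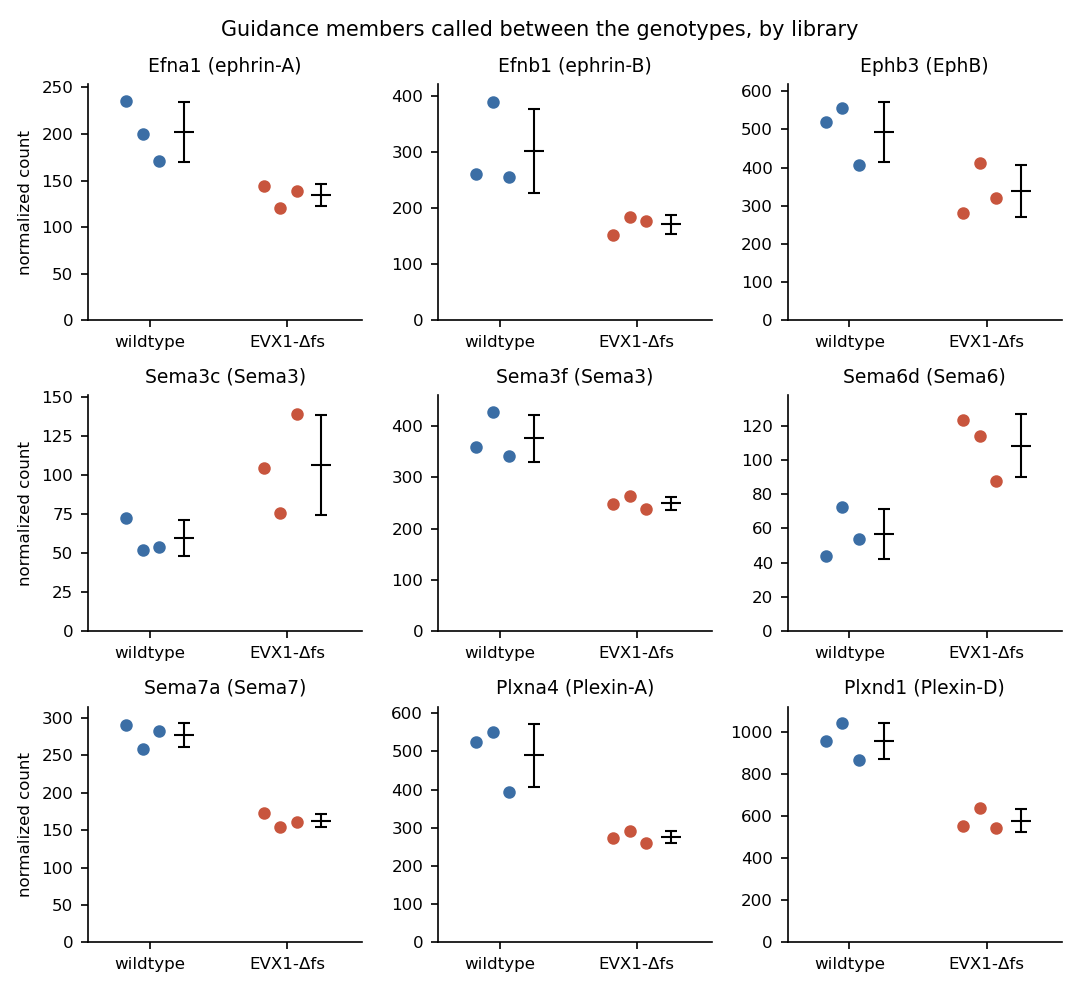
Normalized counts of the 9 called members in each library (dots; wildtype blue, EVX1-Δfs red), with the mean and SD of the 3 libraries beside them, each on its own axis from 0. The genotypes are separate in every panel except that of Ephb3, where EVX1-Δfs replicate 2 lies above wildtype replicate 3.

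Ephrins fell or were not called. Efnb1, the X-linked ephrin-B whose loss disturbs boundaries between cells, lies on chromosome X from 96331469 to 96344330 (plus strand, ENSMUSG00000031217.8). It measured 262, 389 and 255 normalized counts in wildtype and 152, 185 and 177 in EVX1-Δfs, without overlap. The mean fell from 302 ± 75.5 to 171 ± 17.1, and the log2 fold change was -0.79 ± 0.16 (adjusted p = 0.00868, and 0.0233 with the block). With the block and with GC and length trends removed together, the adjusted p was 0.0515.

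The other ephrin-B ligands were not called. Efnb2, the arterial ligand that pairs with Ephb4, measured 783, 880.5 and 684 in wildtype and 689, 672 and 702 in EVX1-Δfs (-0.18 ± 0.12, adjusted p = 0.384). Efnb3 measured 292, 276 and 275 and 224, 324 and 208 (-0.18 ± 0.16, adjusted p = 0.505). The genotypes overlapped for both. Efnb1 accounted for 25.6% ± 3.4 of the ephrin-B level per kb in wildtype and 18.2% ± 1.2 in EVX1-Δfs.

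Efna1, a ligand of Epha2 that is induced in endothelium, lies on chromosome 3 from 89075655 to 89085064 (minus strand, ENSMUSG00000027954.3) and measured 235, 200.0 and 171 in wildtype and 144, 121 and 139 in EVX1-Δfs. The groups did not overlap. The log2 fold change was -0.57 ± 0.16 (adjusted p = 0.0427, and 0.0734 with the block, where it was not called). It was called in 1 of 6 fits that left out a library, that without wildtype replicate 3 (0.0257), and the adjusted p of the other 5 ran from 0.0749 (without wildtype replicate 2) to 0.161 (without wildtype replicate 1). With GC and length trends removed it was at -0.45 and not called (0.145).

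Efna3 and Efna4 are neighbours of Efna1 on chromosome 3 and were not called. Efna3 measured 506, 465 and 713 in wildtype and 490.2, 474 and 473 in EVX1-Δfs (-0.20 ± 0.14, adjusted p = 0.396). Efna4, the ephrin with the highest level per kb, measured 527, 504 and 509.5 and 464, 487 and 449.8, without overlap (-0.14 ± 0.12, adjusted p = 0.512). Efna2 measured 133, 144 and 208 in wildtype and 92.4, 111 and 109.6 in EVX1-Δfs, without overlap (-0.61 ± 0.18, adjusted p = 0.0555). It was just outside the threshold and was called without wildtype replicate 1 (0.0447). Efna5 was the only ephrin with a positive value, at 56.1 to 68.9 in wildtype and 71.0 to 113 in EVX1-Δfs (0.60 ± 0.21, adjusted p = 0.0940).

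Of the EphB receptors Ephb3, known in boundary formation and epithelial sorting, fell. It lies on chromosome 16 from 21204828 to 21223378 (plus strand, ENSMUSG00000005958.7) and measured 519, 557 and 405 in wildtype and 282, 413 and 319 in EVX1-Δfs. Wildtype replicate 3 was below EVX1-Δfs replicate 2, so the groups overlapped, although each EVX1-Δfs library was below the wildtype library of the same number. The log2 fold change was -0.55 ± 0.15 (adjusted p = 0.0365, and 0.0581 with the block, where it was not called). Its call held with wildtype replicate 3 (0.0129) or with EVX1-Δfs replicate 2 (0.0212) left out, and it lost its call without any of the other 4 libraries (adjusted p from 0.0950 without wildtype replicate 1 to 0.158 without EVX1-Δfs replicate 1). With GC and length trends removed it was at -0.44 and not called (0.0994).

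No other EphB gene was called. Ephb4, the venous partner of Efnb2 and the highest of the class per kb, measured 1739, 1482 and 1349 in wildtype and 1402, 1435 and 1423 in EVX1-Δfs (-0.09 ± 0.11, adjusted p = 0.666). Ephb2 measured 317, 334 and 327 and 328, 279.7 and 291 (-0.13 ± 0.13, adjusted p = 0.601). Ephb6, which lacks kinase activity, measured 246, 225 and 251 and 217, 193 and 206, without overlap (-0.23 ± 0.14, adjusted p = 0.337). None of the 5 tested EphA receptors was called. Epha1 measured 2380.2, 1779 and 2476 in wildtype and 2385, 2063 and 2100.2 in EVX1-Δfs, with a log2 fold change of -0.01 (95% interval -0.27 to 0.25). Epha2, a receptor abundant in pluripotent cells, had 0.11 (-0.12 to 0.35), and Epha7 was higher in all 3 EVX1-Δfs libraries, 180.1 to 202 beside 138 to 159, without reaching the threshold (0.40 ± 0.15, adjusted p = 0.119, and 0.12 on the log2 scale with GC and length trends removed).

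Ligands are set beside receptors they are known to bind or signal through, as values only, and not every known pair is listed. Efnb1 and Ephb3 were both called lower, at -0.79 and -0.55, and so were Sema3f and Plxna4, at -0.58 and -0.82. With GC and length trends removed, Efnb1 and Plxna4 were still called, and Ephb3 and Sema3f were not. The other EphB and Plexin-A receptors were not called, among them Ephb2 at -0.13 and Plxna3 at 0.23. Sema6d, of the class that binds plexin-A receptors, was called higher at 0.93, opposite in direction to Plxna4. In other pairs 1 member was called and the other was not. Plxnd1 fell by 0.73 on the log2 scale, while Sema3e was at 0.17 (and at -0.06 with GC and length trends removed). Sema7a fell by 0.76, while Plxnc1 was at -0.09. Sema3f fell by 0.58, while Nrp2 was at -0.13. Sema6d rose by 0.93, while Plxna1 was at -0.21. Efna1 fell by 0.57, while Epha2 was at 0.11. Differences between the members of a pair were not tested.

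The summed normalized count of each class was then taken in every library, as a description with no test. Ephrins summed to 2807, 2917 and 2872 in wildtype and to 2327, 2486 and 2356 in EVX1-Δfs, a ratio of 0.834 between the means, and the genotypes did not overlap. Both ephrin-A (ratio 0.852) and ephrin-B (0.814) contributed. Eph receptors as a whole stood at a ratio of 0.970 with overlap, made up of EphB at 0.875 without overlap and EphA at 1.04 with overlap. Plexin-A genes were at 0.854 without overlap and Plexin-B genes at 1.03 with overlap. Semaphorins were at 0.964 with overlap, and their multigene classes 3, 4, 5 and 6 lay between 0.985 and 0.996. Weighted per kb of exon, class 3 was at 0.900 and the semaphorins at 0.909, and the semaphorins then no longer overlapped between genotypes. The classes with 1 tested gene, Plexin-D (0.604), Sema7 (0.588) and Plexin-C (0.936), repeat the values of that gene. For EphB the lowest wildtype sum was 2354 and the highest EVX1-Δfs sum 2328. Of all single genes tested, 26.9% did not overlap. Trends on GC content and exon length, described below, were not removed from these sums. With them removed, the log2 fold changes of Efna4 and Ephb4 changed sign, while those of Efnb1 and Plxna4 stayed below 0.

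**Figure D4:**
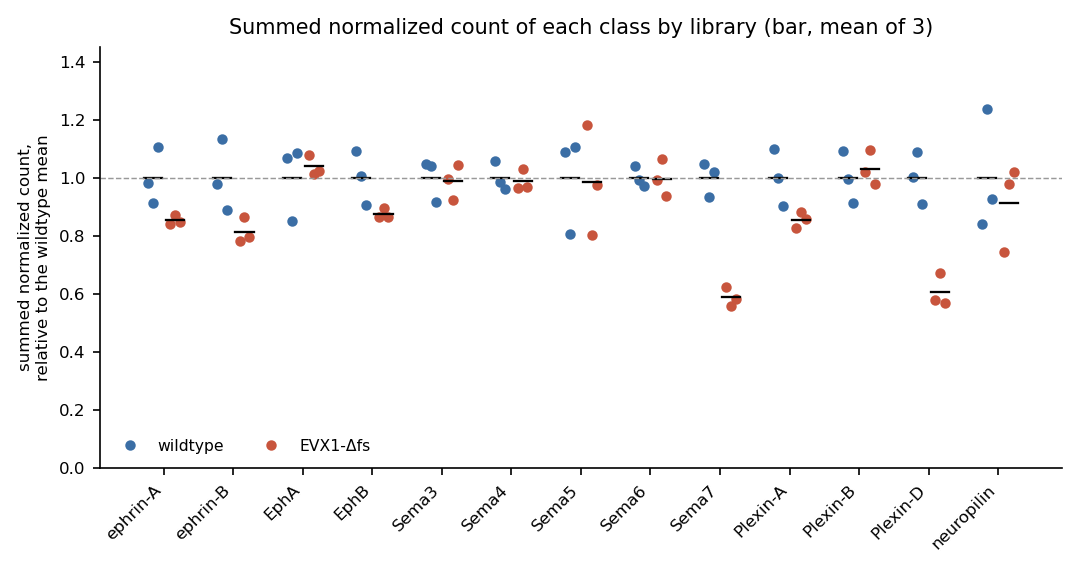
Summed normalized count of each class in each library, divided by the mean of the 3 wildtype libraries (dots, libraries; bars, means; dashed line, wildtype mean; Plexin-C, with 1 gene of low count, is left out). Ephrin-A, ephrin-B, EphB, Plexin-A, Plexin-D and Sema7 lie wholly below wildtype in EVX1-Δfs, and the other classes overlap. Plexin-D and Sema7 are 1 gene each. Of all single genes tested, 26.9% do not overlap.

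Fold changes of the members were lower the higher their GC content. Over the 46 members Spearman's rank correlation between log2 fold change and exonic GC content was -0.483, and over 12486 genes with an annotation it was -0.461. The points share the same 6 libraries, and both values are descriptions. The 7 members that fell had 52.2% to 60.4% GC, with a median of 57.9%. The median was 55.5% over the 46 tested members and 50.3% over all genes tested. Sema3c (40.9%) and Sema6d (47.2%) were below both of these. Of 13 members under 50% GC 8 had a log2 fold change above 0, and of the 33 others 8 had. After the trends of each library on GC content and exon length were removed, 5 members were called (Plxnd1, Plxna4, Sema7a, Efnb1 and Sema6d), where 2.18% of 12486 genes were. With the block as well, 3 members were called (Plxnd1, Plxna4 and Sema7a), where 1.43% were. Plxna4 kept its value, at -0.82 in both fits without trends, while Plxnd1 was at -0.59 and Sema7a at -0.61. Removing the trends would also remove a difference between genotypes that follows GC content, and the 2 were not told apart. Plxnd1 and Plxna4 lie on chromosome 6 with Evx1, as do Plxna1, Epha1, Ephb6 and Sema4f, which were not called. The median log2 fold change of 602 tested genes on that chromosome was 0.03.

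**Figure D5:**
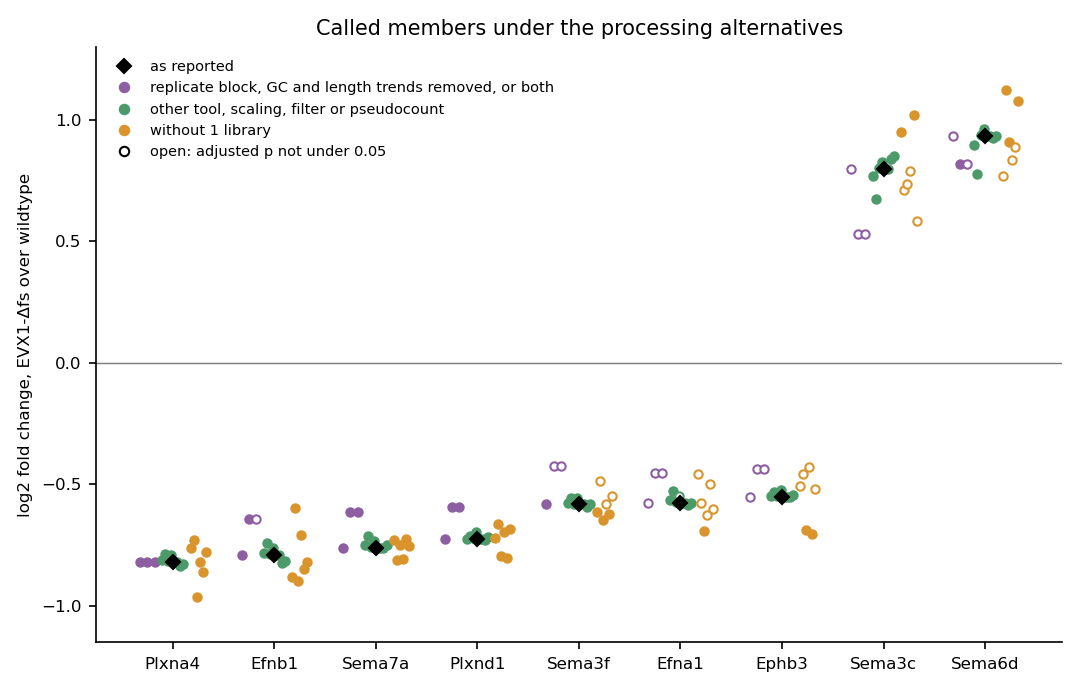
Log2 fold change of the 9 called members as reported (black diamonds) and under 17 alternatives (dots by kind), filled where the adjusted p was under 0.05. Plxna4, Plxnd1 and Sema7a are filled throughout, and no member crosses 0.

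Genes that work with these families were taken as a list of 91, of which 87 were tested: co-receptors, proteases and adaptors, GTPase regulators, kinases, cytoskeletal effectors, and the netrin, slit and related guidance genes. Of these 7 were called, 4 higher (Slit1 among them, which passed the filter only through EVX1-Δfs) and 3 lower, where 5.02% of all genes were called, and their median log2 fold change was -0.0001. Kdr, a VEGF receptor that can form complexes with plexins and that also marks haematoendothelial cells, measured 1877, 2415 and 1669 in wildtype and 976, 1118 and 1052 in EVX1-Δfs (-0.91 ± 0.13, adjusted p = 0.000203). Flt1, the VEGF receptor that also acts as a decoy, went the other way, with 161, 205 and 176 in wildtype and 302, 317 and 293 in EVX1-Δfs (0.75 ± 0.14, adjusted p = 0.00413). Kalrn, a guanine exchange factor that acts below EphB receptors, measured 414, 465 and 377 and 246, 257 and 258 (-0.71 ± 0.13, adjusted p = 0.00325). The groups did not overlap for any of the 3.

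Of the guidance genes outside the named families Robo3, Ntn1 and Slit1 were called higher. Slit1, a secreted repellent, measured 8.61, 7.08 and 6.87 normalized counts in wildtype and 30.8, 64.3 and 40.0 in EVX1-Δfs (2.37 ± 0.35, adjusted p = 0.000402). Its wildtype values were all below the filter of 10, so it was tested only through the EVX1-Δfs libraries where it was high, and its direction was fixed by that filter. Among genes with any read, where that filter was not used, its adjusted p was 0.0011. Robo3, a receptor of the slit family's Robo group, measured 19.1, 13.3 and 14.9 and 42.9, 46.2 and 47.6 (1.49 ± 0.29, adjusted p = 0.00491). With a pseudocount of 16 the log2 fold change of Robo3 was 0.96, still called, and that of Slit1 was 1.34. That fit used the filter of 10 as well, so for Slit1 its call is no separate check. Ntn1, a secreted guidance cue, measured 208, 135 and 175 and 277, 443 and 241 (0.86 ± 0.19, adjusted p = 0.0141). It was the largest in EVX1-Δfs replicate 2, and it was not called without that library (0.0694) or with the block (0.0628). Abl1, a kinase that links guidance receptors to actin, measured 2230.0, 2157 and 2157 in wildtype and 1632, 1783 and 1683 in EVX1-Δfs (-0.36 ± 0.11, adjusted p = 0.0493). It lost its call with the block (0.0883) and without any 1 of the 6 libraries (adjusted p from 0.0577 without wildtype replicate 3 to 0.157 without EVX1-Δfs replicate 1). None of the 11 proteases and adaptors and none of the 10 cytoskeletal effectors was called.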

How the data were processed

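Groups and replicate numbers came from the sample labels. As the study's methods state, the authors aligned Ion Proton reads to mm9 (TopHat2, then TMAP) and took counts per gene from HTSeq with standard settings (versions and annotation are not given in the sources used here). The deposited values are a signal: reads per gene divided by 1 factor per library, and multiplying back gave whole reads for 100% of values (largest distance 3.71e-05). limma 3.58.1 (R 4.3.3, mean-variance trend) was fitted to log2(normalized count + 1), a scale that understates changes of low genes, over genes with at least 10 in at least 3 libraries. A count test does not suit the deposited unit itself, so DESeq2 1.42.0 and edgeR 4.0.16 served as alternatives on the recovered whole reads. DESeq2 with standard settings was the study's own test. P-values measure the spread between 3 differentiations of 1 line or clone. Per the series' description, paired differentiations were set up on separate days. The replicate number was taken to pair the libraries, which the labels do not state. Deviations of same-numbered libraries correlated at 0.111, 0.00933 and -0.101 over 13136 genes. Per-kb values and GC content used the exons of GENCODE vM1 on NCBIM37, which held all 53 members. Promoters came from RefSeq. No window was found there for Plxna4 and Sema3f. Fits were checked on simulated data, and the calls reported above were not tested there. The members and lists were chosen with earlier results of these data known. Every member could be named, and a value is given in every library for called members and for members of the same class with a mean of at least 100. Called partner genes are given with values.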

Additional observations from a re-analysis of the deposited data

How the results depend on the processing

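Of 9 called members, 9 were called with DESeq2, edgeR, TMM scaling, a mean of at least 10, or a pseudocount of 4 or 16, 8 with upper-quartile scaling (Efna1 lost) and 7 among genes with any read (Efna1 and Sema3c lost). With the replicate block 5 were called, with GC and length trends removed 5, and with both 3. Leaving out 1 library gave 4 (without EVX1-Δfs replicate 1) to 9 members, with 5 without wildtype replicate 2 or EVX1-Δfs replicate 3. The 9, without EVX1-Δfs replicate 2, lacked Efna1 and Sema6d and included Plxna2 and Sema6b, which were not among the members called as reported. No called member changed sign: 117 of 153 of their values kept the call and 36 lost it. Over all genes the 660 calls became 222 with the block, 272 with trends removed and 179 with both, and leaving out 1 library gave from 222 (EVX1-Δfs replicate 3) to 655 (wildtype replicate 2). Partner genes stayed at 5 to 8 called. The block changed no other call of the members. Per kb, the class 3 sum was at a ratio of 0.900 and that of all semaphorins at 0.909. Scaling moved the median gene by 0.004 (TMM) and 0.029 (upper quartile) on the log2 scale.

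Of 781 values of tested members, 41 changed sign, in 14 uncalled members. With GC and length trends removed, with or without the block, log2 fold changes were 0.0031 for Efna4, 0.114 for Epha1, -0.025 for Epha4, 0.032 for Ephb4, 0.051 for Plxnb2, -0.294 for Sema3a, -0.062 for Sema3e, 0.050 for Sema4g, 0.071 for Sema5b and -0.064 for Sema6a, and with upper-quartile scaling Epha1 was at 0.022. Leaving out 1 library gave -0.156 to 0.082 for Epha1, -0.177 to 0.0059 for Ephb4, -0.257 to 0.094 for Nrp1, -0.232 to 0.030 for Nrp2, -0.138 to 0.022 for Plxnb2, -0.118 to 0.115 for Sema3a, -0.123 to 0.106 for Sema4f, -0.196 to 0.062 for Sema4g, -0.141 to 0.140 for Sema5a and -0.215 to 0.185 for Sema5b. The cause was not tested. Depth limits the members with few reads most: Sema3c and Sema6d rest on 46 to 146 reads per library.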
